A study of Arabidopsis thaliana with 8 samples.

Results

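The genes described here encode proteins of the cytosolic 40S ribosomal subunit, the small subunit of the ribosome, in Arabidopsis thaliana. A list of 59 loci from 24 protein families, SA to S25, was matched to the array through the platform annotation, and a locus was kept where the annotation gave a probe set to that locus alone. This left 34 genes from 18 families, of 13286 loci named in this way on the whole array. Each of the 34 had 1 probe set, and all 34 probe set names ended in the plain suffix _at. The other 25 listed loci, with all loci of families SA, S5, S6, S15a, S18 and S23, are not analysed here. Of the probe sets not used, 4 named several listed loci together. The family of each locus is its standard assignment and was not read from the files. Families are given by the older animal-based names, in which S4 and S7 are different proteins.

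The small subunit binds messenger RNA, holds the codon in the decoding site and pairs it with the incoming transfer RNA. Its proteins sit on the ribosomal RNA in a head, a platform and a body, places given below as known from yeast and human ribosomes, and most of them are needed in 1 copy per ribosome. Plants keep each of these proteins in a small family of paralogues, genes for almost the same protein, and transcripts of ribosomal protein genes are known to be abundant in growing shoots. Ribosome assembly and translation are known to be sensitive to low temperature.

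The plants were the common laboratory accession Col-0, wild type in every group, grown on soil at 22 °C in continuous fluorescent light of 100 µmol m⁻² s⁻¹, and all tissue was from the parts above ground. The control group, 0 h, was harvested under these conditions. The other groups were moved to 4 °C for 1 h, 24 h or 7 d, in continuous light of about 25 µmol m⁻² s⁻¹, as the treatment protocol gives it, so cold and dimmer light cannot be told apart in any comparison with control. The labels give an age of 18 d for every group, as well as 4 d of stratification and 10 d at 22 °C. There was no group kept warm until the later harvests, so the time of harvest cannot be told apart from cold. Each group had 2 ATH1 arrays, and nothing in the labels says whether these came from separate plantings, so p-values measure the spread between these arrays only. In tissue with many cell types, more cells of a type and more RNA per cell cannot be told apart.

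The deposited values are MAS5 signals, which are proportional to brightness and not calibrated between probe sets, so the level of a gene is compared only with itself. The median signal of all probe sets was 32.8 to 37.8 over the arrays, and the number of arrays limits the precision. Of 22810 probe sets, 14758 were tested, among them all 34 small-subunit genes. Replicate arrays correlated over these genes with r from 0.987 to 0.998, a description across genes that are not independent. RCA, a leaf marker for the activase of Rubisco, was bright on every array (3404 to 5935), and was lower at 7 d than in the control (log2 -0.67 ± 0.10, adjusted p = 0.00385). PYK10, a root marker, had signals of 130 to 158 on the control and 1 h arrays, 85.3 and 109 at 24 h and 15.6 and 18.9 at 7 d. The part of these changes in the results below was not tested. RCA and PYK10 were the members measured here of a list of 4 leaf and a list of 3 root markers, while 5 listed markers of dividing cells and 3 of flowers were not analysed here. For GAPDH, whose control probes give a 3'/5' ratio as a sign of RNA quality, the ratio was 1.24 and 1.26 for control, 1.46 and 1.46 at 1 h, 1.34 and 1.18 at 24 h, and 1.36 and 1.17 at 7 d, so it was highest at 1 h, and at 24 h and 7 d it lay on either side of the control values.

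After 1 h at 4 °C no small-subunit gene passed the test, and after 24 h and 7 d a part of them was higher. At 1 h, 0 of 34 passed in either direction at an adjusted p under 0.05 in limma, against 0.867% of all tested probe sets higher and 0.0407% lower, and 3 had an unadjusted p under 0.05 (8.82%, against 6.70%). At 1 h the log2 changes ranged from -0.24 to 0.86. At 24 h, 7 of 34 were higher (20.6%) and 1 was lower, where 11.1% and 15.1% of all tested probe sets were. At 7 d, 12 of 34 were higher (35.3%) and 0 lower, where 7.33% and 8.54% of all tested probe sets were. An unadjusted p under 0.05 was found for 16 of 34 genes at 24 h (47.1%), against 39.3% of all tested probe sets. At 7 d it was also found for 16 of 34 genes (47.1%), against 31.2%. Of the 12 genes higher at 7 d, 6 had also been higher at 24 h, and the 13 genes higher at either time came from 9 families. The same overlap was not counted over all tested probe sets, so these counts have no background. The 3 comparisons with control share the same 2 control arrays, so their calls are not independent.

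The changes were small for most of these genes. The median log2 fold change was -0.07 at 1 h, 0.23 at 24 h and 0.15 at 7 d, where the median of all tested probe sets was -0.04, -0.10 and -0.00. Centring each array on its median moved the median of all probe sets at 24 h by 0.15. Relative to the median of all probe sets, the small-subunit genes stood 0.33 higher at 24 h, which centring cannot alter, and 0.19 higher under quantile normalization. At 1 h both cold arrays were above both control arrays for 6 of 34 genes (17.6%), against 14.9% of all tested probe sets, and below them for 10 of 34 (29.4%), against 21.9%. At 24 h both cold arrays were above both control arrays for 25 of 34 genes (73.5%), against 26.4% of all tested probe sets, and below them for 4 of 34, against 39.4%. At 7 d the first count was 18 of 34 (52.9%), against 29.1%, and the second was 6 of 34, against 29.9%. These array counts use the signals as deposited and were not repeated under other scalings. The 34 genes had a median signal of 877 to 1171 over the arrays, against 32.8 to 37.8 for all probe sets. All tested probe sets are therefore a dimmer background, here and for the counts of calls. No share was taken over probe sets of matched brightness. The log2 change at 24 h was above 0 for 27 of 34 genes, against 6138 of 14758 tested probe sets, and for 21 genes under quantile normalization. It was above the median of all tested probe sets for 29 of 34 genes, and for 24 under quantile normalization. The summed signal of the 34 genes was 35014 and 35213 on the control arrays, 32511 and 35315 at 1 h, 40570 and 40802 at 24 h, and 42164 and 38881 at 7 d. The sums at 24 h and 7 d lay above all 4 earlier arrays. Bright probe sets weigh most in these sums, so they do not measure an amount of transcript.

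**Figure D1:**
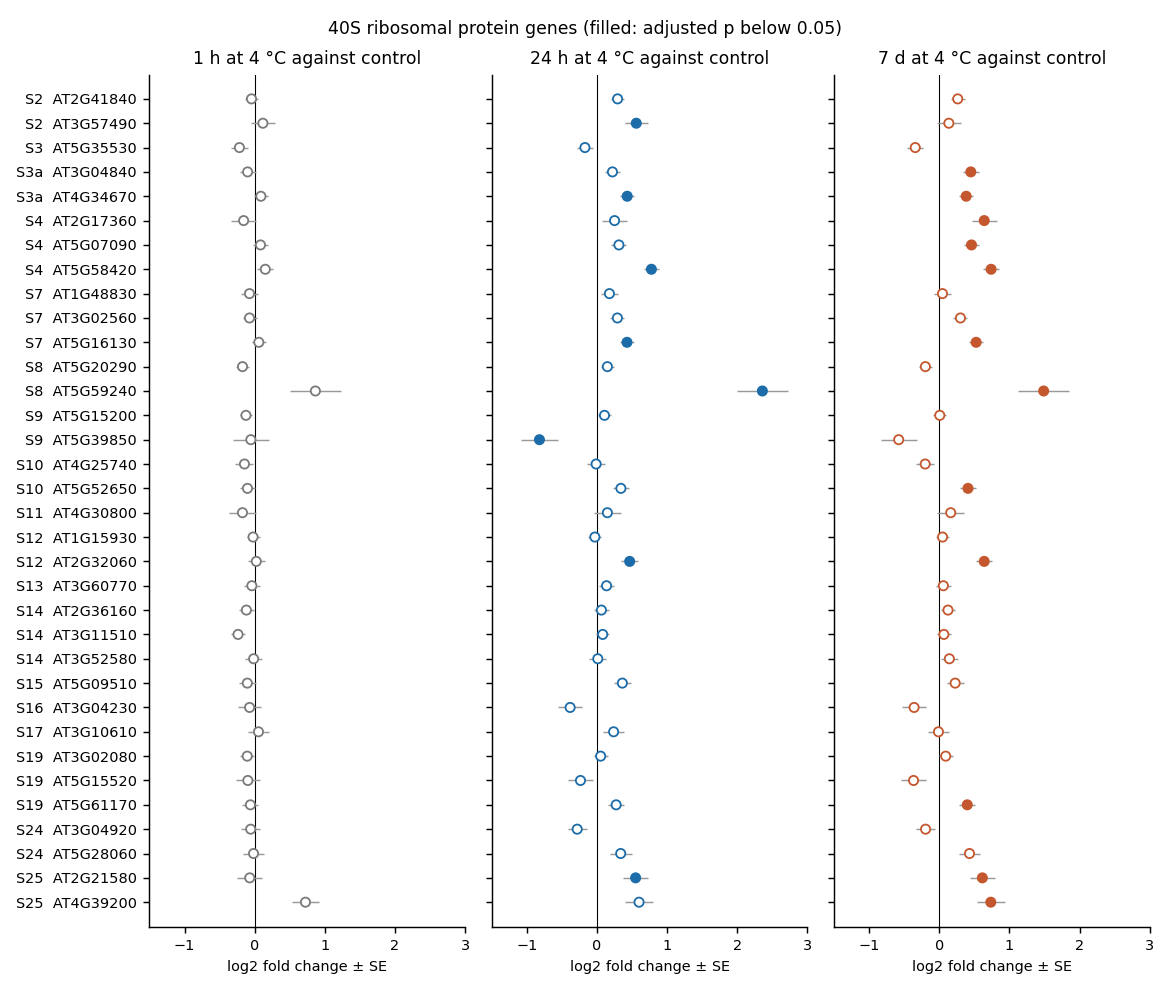
Log2 fold change against control of each of the 34 small-subunit genes at 1 h, 24 h and 7 d, with bars of 1 SE from the limma fit over 8 arrays and filled points for an adjusted p under 0.05. No point is filled at 1 h, 8 are filled at 24 h (7 higher, 1 lower) and 12 at 7 d, and AT5G59240 of family S8 lies farthest to the right at each time.

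These counts depended on single arrays. At 24 h, 4 genes (11.8%) were higher when either control array was left out, against 6.89% and 7.58% of all probe sets. Leaving out 24 h replicate 1 gave 3 genes (8.82%), against 6.82%. Leaving out 24 h replicate 2 gave 2 genes (5.88%), against 6.06%, so the share was then no larger than over all probe sets. At 7 d, leaving out either control array gave 4 genes (11.8%), against 2.47% and 3.60%. Leaving out either 24 h array gave 5 (14.7%), against 5.71% and 5.69%, and leaving out 7 d replicate 2 gave 3 (8.82%), against 3.71%. Leaving out 7 d replicate 1 left 1 gene (2.94%), against 3.57%, again no larger a share than over all probe sets. Without limma's variance trend, 2 genes (5.88%) were higher at 24 h, against 10.0%, and 4 (11.8%) at 7 d, against 5.50%. The 2 were AT5G58420 and AT5G59240, and the 4 were these with AT5G16130 and AT2G32060, so every other call against control ended in that setting. AT5G59240 lay under the 40th percentile on both control arrays (18.7 and 4.18, against 22.5 and 22.4). It entered the test through its cold arrays, where it is high, and the counts at 24 h and 7 d include it. When replicate number entered as a block, 13 genes in place of 7 were higher at 24 h, and 13.7% of all probe sets were then higher. With each array centred on its median, 17 genes were higher and 0 lower at 24 h, in place of 7 and 1, and the shares of all probe sets moved too, to 15.8% higher and 9.92% lower. The count at 7 d was then 13, against 8.28% of all probe sets.

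The 1 h arrays are not part of the control, but a comparison with them uses the same 2 arrays of 24 h, so it is not independent. They had the highest GAPDH 3'/5' ratios (1.46 and 1.46). Their log2 change against control was below 0 for 25 of 34 genes, against 8536 of 14758 tested probe sets. Against the 1 h arrays, 12 of 34 genes were higher at 24 h and 0 lower, where 11.6% and 14.9% of all probe sets were. The count was 1 when 1 h replicate 1 was left out (2.94%, against 6.59% of all probe sets), and 3 when 1 h replicate 2 was (8.82%, against 7.58%). It was 2 when 24 h replicate 1 was left out (5.88%, against 6.55%), and 1 when 24 h replicate 2 was (2.94%, against 6.19%). Under quantile normalization it was 3 (8.82%, against 12.7%), so in 4 of these 5 settings the share lay below that of all probe sets. With the replicate block, AT3G57490 (adjusted p = 0.0444), AT3G04840 (0.0427) and AT5G61170 (0.0424) also passed as higher at 24 h than at 1 h. Between 24 h and 7 d, 0 of 34 genes passed in limma in either direction, where 4.31% of all probe sets were higher and 4.21% lower, and 3 had an unadjusted p under 0.05 (8.82%, against 27.0% of all probe sets), all lower at 7 d. With the replicate block, AT5G20290 of family S8 passed as lower at 7 d than at 24 h (log2 change -0.35, adjusted p = 0.0343), but under quantile normalization its change was 0.12, in the opposite direction. From 24 h to 7 d, the direction changed for 10 of 34 genes under quantile normalization and for 11 with median centring. The median log2 change of the 34 genes over this step was 0.02, 0.17 under quantile normalization and -0.09 with median centring. Over all 4 times, the moderated F test called 13 of 34 genes (38.2%), against 29.9% of all tested probe sets. That share is near the background. Without the variance trend the F test called 4 (11.8%), below the 25.3% of all probe sets. Leaving out control replicate 1 gave 8 F test calls (23.5%, against 22.4%), and leaving out 24 h replicate 1 gave 7 (20.6%, against 18.8%). The share fell below that of all probe sets without 1 h replicate 1 (5 calls, 14.7% against 21.5%), without 24 h replicate 2 (4 calls, 11.8% against 17.2%) and without 7 d replicate 1 (5 calls, 14.7% against 25.9%). With the replicate block, AT3G57490 (adjusted p = 0.0472), AT5G20290 (0.0385), AT5G09510 (0.0303) and AT4G39200 (0.0337) also passed the F test.

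Among proteins of the body of the subunit, S4 was the family in which every member passed at 7 d. S4 lies on the outer side of the subunit and binds ribosomal RNA. AT5G58420 had signals of 655 and 663 in the control, 721 and 743 at 1 h, 1139 and 1124 at 24 h, and 1188 and 1024 at 7 d. All 4 arrays from 24 h and 7 d were above all 4 earlier arrays. It rose 1.71-fold at 24 h (0.78 ± 0.11 on the log2 scale, where ± is 1 SE throughout for fold changes, with an adjusted p of 0.00182 and 2 arrays at each time) and stood 1.67-fold above control at 7 d (adjusted p = 0.00439). Both calls held without each array in turn and under the 9 other settings tried. AT5G07090 had signals of 634 and 590 in the control, 640 and 656 at 1 h, 769 and 752 at 24 h, and 856 and 830 at 7 d. Its values at 24 h and 7 d did not overlap the earlier ones. It was 1.37-fold above control at 7 d (log2 0.46 ± 0.11, adjusted p = 0.0226). At 24 h it stood at 0.31 ± 0.11 (adjusted p = 0.0582, and adjusted p = 0.0380 with the replicate block). AT2G17360 had signals of 598 and 855 in the control, 563 and 729 at 1 h, 852 and 851 at 24 h, and 1112 and 1124 at 7 d. Only its 7 d arrays lay above both control arrays, which themselves differed widely. It was 1.56-fold above control at 7 d (log2 0.64 ± 0.18, adjusted p = 0.0449).

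The 7 d calls of these other S4 genes were lost when some arrays were left out. Both were also lost without the variance trend and with the control and 7 d arrays alone, and that of AT2G17360 with no filter. For AT5G07090 the log2 change stayed between 0.41 and 0.51 over all alternatives, while the adjusted p was 0.0632 and 0.0963 without control replicate 1 and 2, and 0.0922 and 0.0720 without 7 d replicate 1 and 2. For AT2G17360 it was 0.222 without control replicate 1 (log2 change 0.38), 0.0723 and 0.0717 without 24 h replicate 1 and 2, and 0.128 and 0.135 without 7 d replicate 1 and 2.

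S8, another protein of the body, held the gene with the largest change of the 34. AT5G59240 had signals of 18.7 and 4.18 in the control, 21.5 and 24.4 at 1 h, 76.9 and 74.3 at 24 h, and 39.0 and 38.3 at 7 d. Its level was highest at 24 h, and the arrays of 24 h and 7 d overlapped neither each other nor the earlier ones. It rose 5.12-fold at 24 h (log2 2.36 ± 0.36, adjusted p = 0.00233) and stood 2.80-fold above control at 7 d (log2 1.49 ± 0.36, adjusted p = 0.0269). Both control signals lay under the 40th percentile of their array (22.5 and 22.4), so the gene entered the test through its cold arrays, and the size of its change rests on dim control values. Without control replicate 1 its log2 change was 2.99 at 24 h and 2.12 at 7 d, and without control replicate 2 it was 1.72 and 0.85. The call at 24 h held without each array in turn, while at 7 d the adjusted p was 0.0580 without control replicate 2, and 0.0901 and 0.0882 without 7 d replicate 1 and 2. It was 0.0530 with no filter and 0.0773 with the control and 7 d arrays alone. With a pseudocount at the 40th percentile of the table the log2 change was 1.60 at 24 h and 0.91 at 7 d, and with a pseudocount of 1 it was 2.92 and 1.97.

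AT5G20290, its paralogue, had signals of 4602 and 4073 in the control, 3714 and 3964 at 1 h, 4811 and 4787 at 24 h, and 3771 and 3773 at 7 d. The 24 h arrays were the highest and the 7 d arrays lay below both control arrays. Its log2 changes against control, 0.15 ± 0.09 at 24 h (adjusted p = 0.267) and -0.20 ± 0.09 at 7 d (adjusted p = 0.181), did not pass. Under quantile normalization they were -0.01 and 0.11, so its direction at either time differed with the scaling.

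The remaining body proteins with members here were S2, S9, S11 and S24. S2 and S9 line the channel through which messenger RNA enters. AT3G57490, an S2 gene, had signals of 131 and 141 in the control, 157 and 139 at 1 h, 213 and 193 at 24 h, and 174 and 129 at 7 d. Its 24 h arrays were above all others, and its 7 d arrays spanned the control. It rose 1.47-fold at 24 h (log2 0.56 ± 0.17, adjusted p = 0.0385). That adjusted p was 0.157 and 0.0978 without control replicate 1 and 2, 0.0523 and 0.0519 without 1 h replicate 1 and 2, and 0.161 and 0.0980 without 24 h replicate 1 and 2. Its paralogue AT2G41840 was 1706 to 1903 on the 4 earlier arrays and 2180 to 2342 on the 4 later ones, with a log2 change at 24 h of 0.29 ± 0.10 (adjusted p = 0.0571, and adjusted p = 0.0436 with the replicate block). The 2 sets of arrays did not overlap.

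AT5G39850, an S9 gene, was the single small-subunit gene called lower in a comparison with control. Its signals were 50.3 and 66.4 in the control, 52.8 and 58.3 at 1 h, 41.1 and 21.7 at 24 h, and 35.8 and 37.7 at 7 d. The 4 later arrays all lay below the 4 earlier ones, at a dim level. It was 1.77-fold lower at 24 h (log2 -0.82 ± 0.26, adjusted p = 0.0459). This call ended without either control array, without either 1 h array, without 24 h replicate 2 and without either 7 d array, with adjusted p from 0.0553 to 0.246, and its log2 change was -0.44 without 24 h replicate 2. It also ended with no filter (adjusted p = 0.0895), with quantile normalization (0.0732), with median centring (0.0796), without the variance trend (0.0550) and with the control and 24 h arrays alone (0.0735). With the replicate block it was also below the 1 h arrays at 24 h (log2 change -0.77, adjusted p = 0.0488; adjusted p = 0.0575 without the block). Its paralogue AT5G15200, between 2253 and 2757 on all arrays, stood at 0.11 ± 0.09 at 24 h and 0.01 ± 0.09 at 7 d. The S11 gene AT4G30800, between 99.8 and 159, did not pass at any time.

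Neither S24 gene passed in any comparison. AT3G04920 had signals of 737 and 899 in the control, 744 and 822 at 1 h, 699 and 639 at 24 h, and 748 and 674 at 7 d. AT5G28060 had signals of 512 and 686 in the control, 559 and 614 at 1 h, 797 and 708 at 24 h, and 837 and 767 at 7 d. At 24 h AT3G04920 stood at -0.28 ± 0.13 (adjusted p = 0.156) and AT5G28060, whose 4 later arrays all lay above its 4 earlier ones, at 0.34 ± 0.15 (adjusted p = 0.140). This pair was singled out after its values were seen.

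Among proteins of the platform, where the messenger RNA leaves the subunit, S3a and S7 had members that were higher than control at 24 h or 7 d, and S13 and S14 had none. AT4G34670, an S3a gene, had signals of 1433 and 1389 in the control, 1455 and 1547 at 1 h, 1887 and 1920 at 24 h, and 1968 and 1725 at 7 d. The later 4 arrays all exceeded the earlier 4. It rose 1.35-fold at 24 h (log2 0.43 ± 0.10, adjusted p = 0.0170) and stood 1.30-fold above control at 7 d (adjusted p = 0.0396). At 24 h its adjusted p rose to 0.0646 when control replicate 2 was left out, and to 0.0688 or 0.0897 when 24 h replicate 1 or 2 was. At 7 d the call ended without any 1 of the 8 arrays (adjusted p from 0.0554 to 0.196). Its paralogue AT3G04840 was 1.37-fold above control at 7 d (log2 0.45 ± 0.11, adjusted p = 0.0312) and stood at 0.22 ± 0.11 at 24 h. Its highest 2 arrays were those of 7 d, 2966 and 2702, against 1966 and 2183 in the control. Its 7 d call ended without either control array, either 24 h array or either 7 d array, with adjusted p up to 0.147.

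S7 is a protein of eukaryotic ribosomes that is also needed to assemble the small subunit. AT5G16130 had signals of 1321 and 1348 in the control, 1361 and 1420 at 1 h, 1715 and 1882 at 24 h, and 1945 and 1901 at 7 d. Its later arrays did not overlap the earlier ones, and the 7 d arrays were the highest as deposited. From 24 h to 7 d its log2 change was 0.10, with 0.28 under quantile normalization and -0.01 with median centring. It rose 1.35-fold at 24 h (log2 0.43 ± 0.10, adjusted p = 0.0137) and stood 1.44-fold above control at 7 d (log2 0.53 ± 0.10, adjusted p = 0.0100). At 24 h the adjusted p rose to 0.0539 when control replicate 1 was left out and to 0.0976 when 24 h replicate 2 was, and at 7 d it was 0.0540 without 7 d replicate 1. AT3G02560 was 1151 to 1235 on the earlier arrays and 1433 to 1588 on the later ones, with log2 changes of 0.29 ± 0.10 at 24 h and 0.30 ± 0.10 at 7 d. These had adjusted p of 0.0617 and 0.0753, and 0.0415 and 0.0489 with the replicate block. The third gene, AT1G48830, had signals of 1198 and 1182 in the control, 1093 and 1168 at 1 h, 1271 and 1426 at 24 h, and 1342 and 1124 at 7 d. Its 7 d arrays spanned the control, and its log2 changes were 0.18 ± 0.12 and 0.05 ± 0.12.

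The 3 genes for S14 and the S13 gene AT3G60770 stayed within log2 changes of 0.01 to 0.14 at 24 h and 0.06 to 0.14 at 7 d, and none passed against control. Under quantile normalization the 3 S14 genes stood at -0.04, -0.02 and -0.05 at 24 h. At 1 h AT3G11510, an S14 gene, stood at -0.24 ± 0.10 (1523 and 1505, against 1752 and 1821 in the control), the lowest change of the 34 genes at that time, with an adjusted p of 0.664. Its rise from 1 h to 24 h passed (log2 0.32 ± 0.10, adjusted p = 0.0378), a call that ended without either 1 h, 24 h or 7 d array, with adjusted p up to 0.247 over all alternatives.

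Among proteins of the head, S12, S25, S10 and S19 had members that were higher at 24 h or 7 d. S12 lies in the beak of the head. AT2G32060 had signals of 838 and 743 in the control, 775 and 828 at 1 h, 1096 and 1087 at 24 h, and 1323 and 1149 at 7 d. The later arrays did not overlap the earlier ones. It rose 1.38-fold at 24 h (log2 0.47 ± 0.12, adjusted p = 0.0210) and stood 1.56-fold above control at 7 d (log2 0.64 ± 0.12, adjusted p = 0.00980). Leaving out control replicate 2 gave an adjusted p of 0.102 at 24 h and of 0.0515 at 7 d. Leaving out 24 h replicate 1 or 2 gave 0.0882 or 0.0911 at 24 h, and leaving out 7 d replicate 1 gave 0.0576 at 7 d. The 24 h call of AT2G32060 also ended under quantile normalization and without the variance trend (adjusted p up to 0.0544). Its paralogue AT1G15930 kept to 1625 to 1765 over all 8 arrays, with log2 changes of -0.03 ± 0.09 at 24 h and 0.05 ± 0.09 at 7 d.

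S25 sits in the head near the site from which transfer RNA leaves. AT2G21580 had signals of 408 and 505 in the control, 385 and 485 at 1 h, 714 and 625 at 24 h, and 783 and 623 at 7 d. The later arrays were all above the earlier ones. It rose 1.46-fold at 24 h (log2 0.55 ± 0.17, adjusted p = 0.0476) and stood 1.53-fold above control at 7 d (adjusted p = 0.0461). Both calls ended with no filter, under quantile normalization and without the variance trend, with adjusted p up to 0.0878 and 0.0840. At 24 h the adjusted p was 0.230 and 0.0569 without control replicate 1 and 2, and 0.203 and 0.0995 without 24 h replicate 1 and 2. At 7 d it was 0.228 and 0.0635 without control replicate 1 and 2, 0.0671 and 0.0663 without 24 h replicate 1 and 2, and 0.202 and 0.0546 without 7 d replicate 1 and 2.

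The other S25 gene, AT4G39200, had signals of 983 and 847 in the control, 1212 and 1882 at 1 h, 1354 and 1418 at 24 h, and 1689 and 1372 at 7 d. Every cold array lay above both control arrays, and the highest of all was 1 h replicate 2. It was 1.66-fold above control at 7 d (log2 0.73 ± 0.20, adjusted p = 0.0395). At 1 h its log2 change of 0.72 ± 0.20 did not pass (adjusted p = 0.280), and at 24 h it stood at 0.60 ± 0.20 (adjusted p = 0.0549, and adjusted p = 0.0397 with the replicate block). At 7 d the adjusted p was 0.0937 and 0.159 without control replicate 1 and 2, 0.0638 and 0.0630 without 24 h replicate 1 and 2, and 0.170 and 0.0626 without 7 d replicate 1 and 2.

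Of 2 S10 genes, AT5G52650 was 1.33-fold above control at 7 d (log2 0.41 ± 0.11, adjusted p = 0.0410), with 1930 and 1776 against 1442 and 1345. At 24 h it stood at 0.34 ± 0.11 (adjusted p = 0.0532, and adjusted p = 0.0386 with the replicate block). AT4G25740, the other, had 695 and 560 at 7 d against 717 and 719 and did not pass (log2 -0.20 ± 0.13). Of 3 S19 genes, AT5G61170 was 1.32-fold above control at 7 d (log2 0.40 ± 0.11, adjusted p = 0.0455), AT3G02080 stood at 0.09 ± 0.10 and AT5G15520 at -0.37 ± 0.17. The 7 d calls of AT5G52650 and AT5G61170 ended without any 1 of the 8 arrays, with adjusted p up to 0.173 and 0.201. S3 forms the entry to the messenger RNA channel, S15 and S16 reach towards the decoding site with their tails, and each had 1 gene here, as did S17. AT5G35530 (S3) had 1203 and 1256 in the control and 884 to 1118 on the 6 cold arrays, all below control, and did not pass at any time (log2 -0.34 ± 0.12 at 7 d, adjusted p = 0.0826). AT5G09510 (S15) stood at 0.36 ± 0.12 at 24 h (adjusted p = 0.0577, and adjusted p = 0.0380 with the replicate block). AT3G04230 (S16), with signals between 45.2 and 69.8, stood at -0.38 ± 0.17 at 24 h, and AT3G10610 (S17) at 0.24 ± 0.15. In all, 15 of the 34 genes passed in none of the 5 comparisons, with log2 changes from -0.38 to 0.34 at 24 h and from -0.37 to 0.43 at 7 d.

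**Figure D2:**
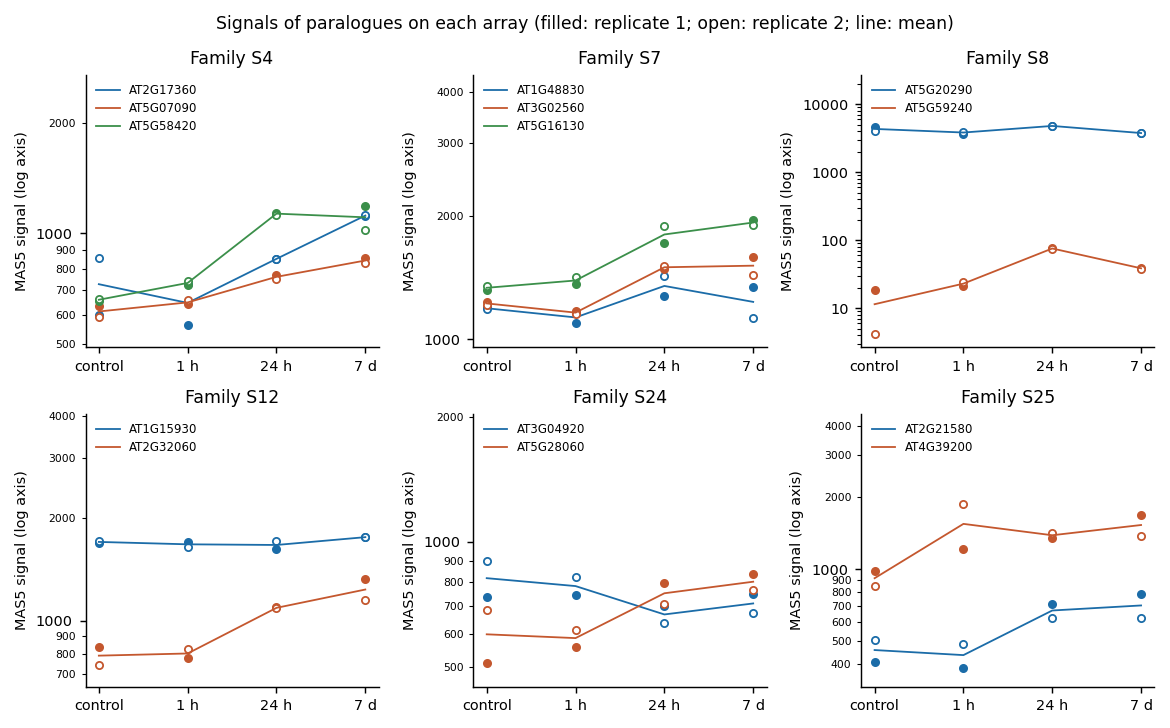
MAS5 signal on a log axis of the members of 6 families on each of the 8 arrays (filled circles, replicate 1; open circles, replicate 2; lines, means per time). In S4 all 3 genes are above control at 7 d, in S12 AT2G32060 moves while AT1G15930 keeps to 1625 to 1765, and in S8 AT5G59240 rises from 18.7 and 4.18 to 76.9 and 74.3. The 6 families were picked for display after their values were seen, and signal heights of different genes are not comparable.

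Whether paralogues of a family changed unequally was tested on the ratio of their signals within each array, which does not compare their levels. For 20 pairs from 12 families, the log2 ratio was compared over the 4 times by an exact permutation test of all ways to split 8 arrays into 4 pairs, so the smallest possible p is 0.00952. A ratio that takes a single step between 1 h and 24 h and then stays shares its high F value with other splits, so such a pair may get a p of up to 0.0857. Of the 20 pairs, 3 reached the smallest p and 6 had a p under 0.05, while 0 passed after Benjamini-Hochberg adjustment over the 20 pairs. The 6 became 2 to 5 when 1 array was left out, 4 under quantile normalization and 5 with the replicate block, where the smallest possible p is 0.0417. With a pseudocount at the 40th percentile of the table, 4 passed the adjustment, and 0 did under every other alternative. Over 20 pairs the smallest p becomes 0.0635 when 3 pairs share it, and 4 pairs shared it where 4 passed. With the replicate block, the 5 pairs at the smallest possible p could not pass the adjustment, so the 0 there decides nothing.

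The 3 pairs at the smallest exact p were in S4, S7 and S8 (exact permutation p = 0.00952 and adjusted p = 0.0635 for each, n = 8 arrays). In S4, the log2 ratio of AT5G07090 to AT5G58420 was -0.05 and -0.17 in the control, -0.17 and -0.18 at 1 h, -0.56 and -0.58 at 24 h, and -0.47 and -0.30 at 7 d. It fell by 0.46 ± 0.07 (SE) from control to 24 h. In S7, the log2 ratio of AT1G48830 to AT5G16130 was -0.14 and -0.19 in the control, -0.32 and -0.28 at 1 h, -0.43 and -0.40 at 24 h, and -0.53 and -0.75 at 7 d. It was lower at each later time, and the 4 times did not overlap. In S8, the ratio of AT5G20290 to AT5G59240 fell by 2.21 ± 0.39 to 24 h and by 1.69 ± 0.39 to 7 d, with the dim control values of AT5G59240 entering it.

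Other pairs moved apart by amounts well above their SE without reaching the smallest p, and not all of them are given here. In S24, the log2 ratio of AT3G04920 to AT5G28060 was 0.52 and 0.39 in the control, 0.41 and 0.42 at 1 h, -0.19 and -0.15 at 24 h, and -0.16 and -0.18 at 7 d. Its 4 later values lay far below the 4 earlier ones and close to each other. The change was -0.62 ± 0.05 at 24 h and -0.63 ± 0.05 at 7 d (exact permutation p = 0.0857, adjusted p = 0.156, n = 8 arrays). In S12, the ratio of AT1G15930 to AT2G32060 changed by -0.50 ± 0.11 and -0.59 ± 0.11 (exact permutation p = 0.0571, adjusted p = 0.156, n = 8 arrays). In S10, the ratio of AT4G25740 to AT5G52650 changed by -0.35 ± 0.13 and -0.61 ± 0.13 (exact permutation p = 0.0381, adjusted p = 0.152, n = 8 arrays). In S19, the ratio of AT3G02080 to AT5G61170 changed by -0.22 ± 0.07 and -0.31 ± 0.07 (exact permutation p = 0.0476, adjusted p = 0.156, n = 8 arrays). In S9, the ratio of AT5G15200 to the dim AT5G39850 changed by 0.93 ± 0.33 and 0.59 ± 0.33 (exact permutation p = 0.0857, adjusted p = 0.156, n = 8 arrays).

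In S14, the 3 ratios changed by -0.02 to 0.07 at 24 h and by -0.08 to 0.06 at 7 d, with SE of 0.06 to 0.07. At 1 h the ratio of AT3G11510 to AT3G52580 stood at -0.22 ± 0.07 from control (exact permutation p = 0.0190 over the 4 times, adjusted p = 0.0952, n = 8 arrays). In S25, the ratio of AT2G21580 to AT4G39200 was lowest at 1 h, -0.79 ± 0.23 from control, and was -0.05 ± 0.23 and -0.12 ± 0.23 from it at 24 h and 7 d (exact permutation p = 0.143, adjusted p = 0.204, n = 8 arrays).

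**Figure D3:**
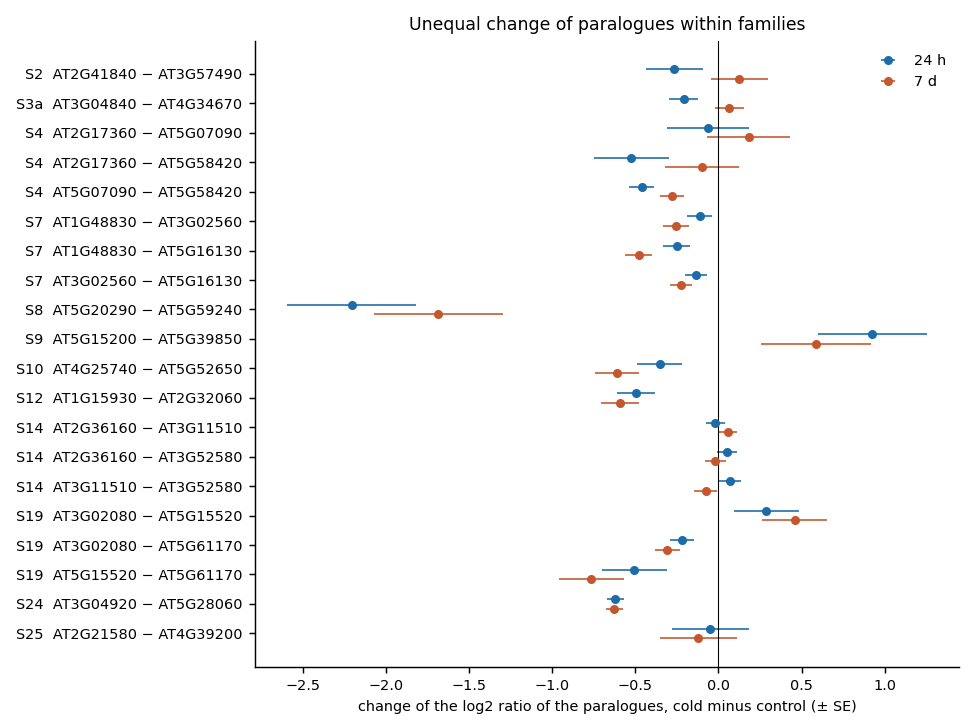
Change of the log2 signal ratio of 20 paralogue pairs from control to 24 h (blue) and to 7 d (orange), with bars of 1 SE from the spread of replicate arrays pooled over the 4 times. A point left of 0 means that the gene named first gained less or lost more than the second. The S8 pair lies near -2.21 and -1.69, the S24 pair near -0.62 at both times, and the S14 pairs lie between -0.08 and 0.07.

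Genes of the large subunit, the 60S subunit, moved in the same direction. Of 130 listed large-subunit loci, 82 were named and 76 tested. At 24 h, 29 were higher (38.2%) and 1 lower, where 11.1% and 15.1% of all tested probe sets were, with a median log2 change of 0.29. At 7 d, 15 were higher (19.7%) and 1 lower, where 7.33% and 8.54% of all tested probe sets were, with a median of 0.21. At 1 h 0 passed in limma in either direction, against 0.867% of all tested probe sets higher and 0.0407% lower. An unadjusted p under 0.05 in limma was found for 0 of them at 1 h, against 6.70%. The share of higher genes was larger at 24 h in the large subunit and larger at 7 d in the small subunit. The median change, though, was larger in the large subunit at both times (0.29 and 0.21, against 0.23 and 0.15). At 7 d an unadjusted p under 0.05 in limma was found for 33 of 76 and 16 of 34 genes, against 31.2% of all tested probe sets. The small-subunit share at 7 d fell to 11.8% without the variance trend, a setting not run for the large subunit. Whether the subunits differ was not tested. Of 33 small-subunit loci outside the list, 9 were tested. AT2G45710 (S27) was higher at 24 h (log2 0.67 ± 0.14, adjusted p = 0.00882) and AT4G34555 (S25) at 7 d (0.65 ± 0.18, adjusted p = 0.0453), and the other 7 did not pass at either time. Each is 1 of 9 (11.1%), where 11.1% of all tested probe sets were higher at 24 h and 7.33% at 7 d.

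Of 13 listed genes for ribosome assembly, 4 were tested and all were higher at 24 h, against 11.1% of all tested probe sets, with a median of 1.27. Their median was 0.65 at 7 d, when 2 passed as higher, against 7.33% of all tested probe sets. Between 24 h and 7 d, 2 of them were lower, against 4.21% of all tested probe sets. In that comparison 0 of the 34 small-subunit genes passed. Among 5 listed genes of the TOR kinase and S6 kinase pathway, which phosphorylates ribosomal protein S6, RAPTOR1 was tested. RAPTOR1, the substrate-binding partner of TOR, had signals of 107 and 100 in the control, 97.1 and 110 at 1 h, 78.1 and 66.8 at 24 h, and 78.7 and 68.7 at 7 d. It was lower at 24 h (log2 -0.48 ± 0.15, adjusted p = 0.0475) and stood at -0.46 ± 0.15 at 7 d (adjusted p = 0.0770), while its arrays of both times lay below the 4 earlier ones.

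**Figure D4:**
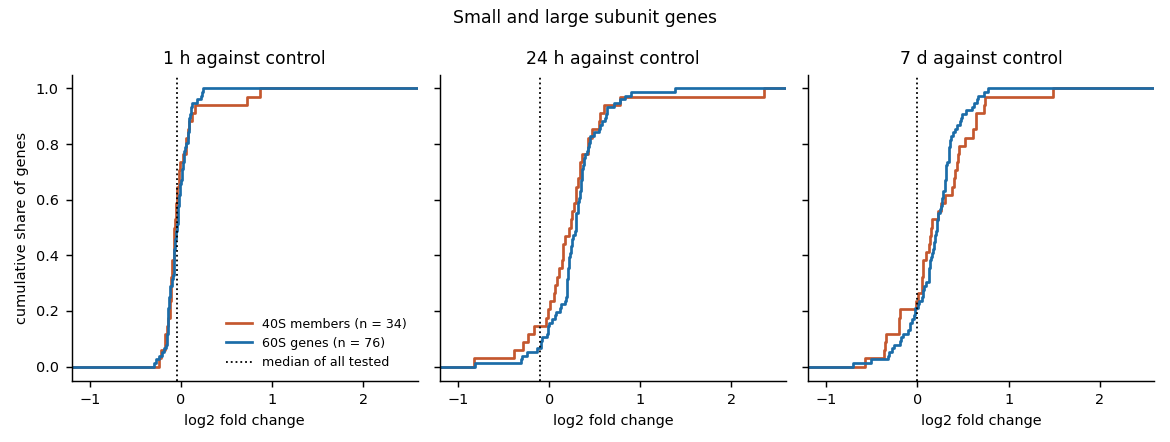
Cumulative share of the 34 small-subunit genes and the 76 tested large-subunit genes by log2 fold change against control at 1 h, 24 h and 7 d, with a dotted line at the median of all tested probe sets. At 24 h and 7 d both curves lie mostly to the right of the dotted line, with medians of 0.23 and 0.29 at 24 h and of 0.15 and 0.21 at 7 d.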

How the data were processed

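The deposited values are signal intensities on a linear scale, 1 per probe set and array, and MAS5, which summarises the probes of a probe set, is named in the submitters' processing notes; its version is not given in the sources used here. Every array had a 2% trimmed mean of 100, and this scaling was kept. After 64 control probe sets of 22810 were dropped, 13513 carried a single gene name, 503 several names and 8730 no name in the platform annotation. Locus tags and symbols came from RefSeq's table for TAIR10.1, used for names alone.

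Values were used as log2(signal + 6.07), the pseudocount being the 20th percentile of the table, so fold changes of dim genes are understated. Testing was limited to probe sets that reached the 40th percentile of the array on 2 or more arrays. It was done with limma 3.58.1 in R 4.3.3 (a mean per time over 8 arrays, eBayes with a variance trend, 4 residual degrees of freedom, two-sided). Every adjusted p of a gene is from this fit, with Benjamini-Hochberg adjustment over all 14758 probe sets. Alternatives varied the pseudocount, filter, normalization, variance trend, arrays in the fit and block for the small-subunit genes, not for the other lists. The fit and the permutation test were tested on simulated data. Same-numbered replicates deviated together (correlations of their deviations from the group means from 0.16 to 0.36 over 6 pairs of times), so values with the replicate number as a block stand beside results whose call they change.

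Values on every array are given by a naming rule: the 12 largest changes at 24 h and the 8 largest at 1 h and 7 d among genes that passed, every gene that passed as lower, and the paralogue pairs at the smallest exact p or with log2 changes at least 1 apart at 24 h or 7 d. Families S5, S6 and S18, which the rule also named, had no gene here. Array values of further genes were picked for the text after they were seen. Members, lists and the rule were chosen with earlier results of these data known.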

Additional observations from a re-analysis of the deposited data

How the results depend on the processing

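Each time had 2 arrays, and the counts of calls moved with the spread estimate and with single arrays. Among higher genes at 24 h (7 as reported), the count was 12 with the 60th percentile filter, 17 with median centring, 2 without the variance trend and 13 with the replicate block, and 2 to 7 without 1 array. With the filter, the centring, no trend and the block, the shares were 36.4%, 50.0%, 5.88% and 38.2%. The shares of all probe sets higher at 24 h were then 15.1%, 15.8%, 10.0% and 13.7%. The 7 genes were all among those called with the filter, the centring and the block. The 1 lower gene at 24 h became 0 with no filter, with the 60th percentile filter (where it was not tested), with quantile normalization, with median centring, without the variance trend and with the compared times alone, and 0 to 1 without 1 array. Among higher genes at 7 d (12), the count was 4 with no filter, 4 without the variance trend, 4 with the compared times alone, and 1 to 9 without 1 array. For 24 h against 1 h (12 higher), it was 6 with no filter, 3 with quantile normalization, 20 with median centring, 3 without the variance trend, and 1 to 12 without 1 array; the 0 lower became 1 with the replicate block, and 0 to 1 without 1 array. Where the lower gene at 24 h was lost by filter, scaling, trend or times alone, 8.12% to 18.9% of all probe sets were lower. Each count of 4 at 7 d was 11.8%, against 3.39%, 5.50% and 4.02% of all probe sets in turn. For 24 h against 1 h, the shares higher were 17.6%, 8.82%, 58.8% and 8.82%, against 6.37%, 12.7%, 16.6% and 10.2%. The 1 lower with the block was 2.94%, against 19.1%. For 7 d against 24 h (0 in either direction), 1 was higher with quantile normalization (2.94%, against 2.75%). There, 1 was lower with the 60th percentile filter, 1 with median centring, 2 with the compared times alone, 1 with the replicate block, and 0 to 2 without 1 array. The F test (13) called 7 with no filter, 4 without the variance trend, and 4 to 11 without 1 array. The F test shares were 20.6% with no filter, against 15.2% of all probe sets, and 11.8% without the variance trend, against 25.3%. For 7 d against 24 h, the shares lower with the filter, the centring, the times alone and the block were 3.03%, 2.94%, 5.88% and 2.94%. The shares of all probe sets were then 6.7%, 6.8%, 3.92% and 7.41%. The 0 paralogue pairs passing became 4 with a pseudocount at the 40th percentile. The replicate block changed no call of a small-subunit gene beyond those given beside the results. At 1 h the counts stayed at 0 under every alternative run. The choice among several probe sets of a locus could not be varied, since each locus had 1. Except where the alternative left out arrays or genes, the cause of a change was not tested.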
